A study of Mus musculus with 4 samples.

Results

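The genes examined were the core of the transforming growth factor-beta (TGF-β) pathway in mouse podocytes treated with IL-12. They were chosen by name, and each of the 10 symbols (Tgfb1, Tgfb2, Tgfb3, Ltbp1, Tgfbr1, Tgfbr2, Tgfbr3, Smad2, Smad3 and Smad4) matched 1 of the 54532 genes in the deposited count table. All 10 passed the filter on low counts, which left 14095 genes. RNA-sequencing was performed on the MPC5 mouse podocyte line, a conditionally immortalized line that, per the study's methods, is expanded with interferon-γ and differentiated without it. The IL-12 treatment group was given IL-12 at 400 ng/ml during 6 h (2 libraries) and the control group received saline (2 libraries). Whether libraries were prepared from separate dishes of cells is not stated, so the P-values measure only the spread between these libraries, which may be technical. Both groups came from 1 cell line.

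The TGF-β ligands are secreted in a latent form. Each is folded with its own propeptide and is bound to a latent TGF-β binding protein such as Ltbp1, which anchors the complex to the extracellular matrix until integrins, proteases or thrombospondin release the ligand. The free ligand binds the type II receptor Tgfbr2, which recruits and phosphorylates the type I receptor Tgfbr1, while the co-receptor betaglycan (Tgfbr3) presents ligand to them and binds the Tgfb2 product in particular. Tgfbr1 then phosphorylates Smad2 and Smad3, which join the common partner Smad4 and enter the nucleus to regulate transcription. In the glomerulus this pathway is known for driving matrix production and podocyte loss.

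After IL-12, 2 of the 10 genes rose, Ltbp1 by 49.2% and Tgfb1 by 25.5%. A further 3 fell, Tgfbr3 by 35.8%, Smad3 by 15.4% and Tgfb2 by 12.4%. The other 5 genes (Tgfb3, Tgfbr1, Tgfbr2, Smad2 and Smad4) did not pass the test, which was edgeR's quasi-likelihood test with an adjusted P below 0.05 over all genes tested. By the same test 30.5% of all genes passed, 16.1% higher and 14.4% lower, so a count of 5 of 10 has to be read against that background. None of the 10 genes changed over 2-fold, the limit that 1.61% of all genes exceeded with an adjusted P below 0.05. When libraries were scaled by their total counts, 5 of the 10 fell instead of 3, since Tgfbr1 and Tgfbr2 then passed.

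The libraries held between 18355379 and 20098012 counts, and the 10 genes had between 399 and 21350 counts in a library. The identity of the cells was checked on marker genes. Of 12 podocyte markers, 6 were below 1 FPKM (the deposited level per gene length and library total) in all libraries. Nphs1 and Wt1, which encode nephrin and a podocyte transcription factor, had at most 16 counts in any library, and Tcf21 and Ptpro had 0 counts in all of them. Actn4, Kirrel, Synpo, Cd2ap and Podxl were detected at mean levels from 10.3 to 188 FPKM in the control group. All 7 endothelial markers were below 1 FPKM. The summed level of 8 tubular markers was 94.1 and 90.1 FPKM under saline, against 63.2 and 65.1 FPKM after IL-12, nearly all of it Lrp2 and Cdh16, with Slc34a1 and Umod at 0 counts. The 8 leukocyte markers summed to 8.13 and 9.45 FPKM under saline, against 6.03 and 7.90 FPKM after IL-12, with Cd3e, Adgre1 and Tyrobp at 0 counts. Nearly all of it was Cd68 and Csf1r, and these differed. Csf1r, the macrophage growth factor receptor, fell by 0.88 on the log2 scale (adjusted P = 3.41e-06, edgeR). Cd68 did not pass, with a log2 fold change of 0.07 (adjusted P = 0.823, edgeR). Its level was 3.73 and 4.72 FPKM under saline, against 3.74 and 5.19 FPKM after IL-12, so the lower sum came from Csf1r. The 7 mesangial and fibroblast markers summed to 13.4 and 13.5 FPKM under saline, against 13.4 and 15.4 FPKM after IL-12, with Ren1, Dpt and Lum at 0. The part of these marker differences in the results was not tested. In bulk RNA, fewer cells of a type and less RNA per cell cannot be told apart.

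The promoters of the genes that moved are shown first, because they are the stretches through which transcription of these genes starts. RefSeq windows (GRCm38.p6) were found for 6 of the 10 genes, and the 250 bases before each start are given for the 4 of the 5 changed genes that have a window. Capitals mark the SMAD box CAGAC or its reverse complement GTCTG, the short motif that the DNA-binding domain of Smad3 and Smad4 contacts. Ltbp1 has 2 such windows on the plus strand, at chr17:75005279-75005528 and chr17:75178531-75178780, the second within the gene. The Tgfb1 window lies at chr7:25686752-25687001 on the plus strand, the Tgfb2 window at chr1:186705990-186706239 on the minus strand and the Smad3 window at chr9:63757995-63758244 on the minus strand.
Ltbp1 upstream start: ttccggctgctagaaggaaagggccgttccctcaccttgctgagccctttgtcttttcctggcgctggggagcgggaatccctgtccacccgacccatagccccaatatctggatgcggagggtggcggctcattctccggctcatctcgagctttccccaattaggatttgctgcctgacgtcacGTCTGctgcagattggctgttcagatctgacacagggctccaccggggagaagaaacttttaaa
Ltbp1 internal start: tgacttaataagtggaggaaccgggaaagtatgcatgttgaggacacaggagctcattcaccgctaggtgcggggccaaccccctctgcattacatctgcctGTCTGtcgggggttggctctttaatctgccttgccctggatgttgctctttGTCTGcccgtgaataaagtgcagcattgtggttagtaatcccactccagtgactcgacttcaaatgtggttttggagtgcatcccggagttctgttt
Tgfb1: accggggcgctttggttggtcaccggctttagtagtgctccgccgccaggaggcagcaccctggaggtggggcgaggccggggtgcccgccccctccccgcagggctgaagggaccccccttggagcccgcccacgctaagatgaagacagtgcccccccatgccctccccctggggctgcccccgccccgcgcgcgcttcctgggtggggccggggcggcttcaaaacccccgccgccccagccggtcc
Tgfb2: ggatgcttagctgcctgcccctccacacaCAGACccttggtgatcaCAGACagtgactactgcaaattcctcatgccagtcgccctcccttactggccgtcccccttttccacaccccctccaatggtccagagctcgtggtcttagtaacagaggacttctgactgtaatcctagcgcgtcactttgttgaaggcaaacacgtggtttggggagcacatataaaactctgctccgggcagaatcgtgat
Smad3: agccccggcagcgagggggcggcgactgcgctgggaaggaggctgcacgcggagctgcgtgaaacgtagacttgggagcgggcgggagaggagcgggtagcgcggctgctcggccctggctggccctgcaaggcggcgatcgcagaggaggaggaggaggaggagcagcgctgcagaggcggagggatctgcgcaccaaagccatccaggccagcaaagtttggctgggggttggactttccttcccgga

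The SMAD box was present 1 time in the upstream Ltbp1 window, 2 times in the internal one and 2 times in the Tgfb2 window. It was not found in the Tgfb1 or Smad3 window. It occurs in 42.2% of 32851 windows of the same length over all genes, so a match is common. The Tgfb1 and Smad3 windows were instead rich in G and C, with a GC content of 75.2% and 69.2% against a median of 52.4% over all windows. They held 5 and 2 copies of the GC box GGGCGG (reverse complement CCGCCC), which is the motif of SP1 and occurs in 32.7% of all windows. The AP-1 motif TGANTCA (6.75% of all windows) was in none of the windows shown. A gene that rose and a gene that fell were found on both sides of this split. Genes that did not pass had similar windows. The upstream Tgfbr1 window had a GC content of 74.8% and 2 GC boxes, and the Tgfbr2 window held 1 SMAD box. The split rests on few genes and on the letters chosen, so it cannot tell whether the motifs bear on the direction of change, which was not tested.

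The ligand genes came first in the comparison. Tgfb1 (ENSMUSG00000002603, chromosome 7 from 25687002 to 25705077, GRCm38) encodes the ligand best known from kidney fibrosis and had 419 and 399 counts under saline, against 555 and 474 after IL-12. Scaled to library size, these were 22.1 and 21.1 CPM (counts after scaling to a common library total) in the control group and 28.1 and 26.2 CPM in the IL-12 treatment group. Both IL-12 libraries were thus above both control libraries. The mean rose from 21.6 ± 0.690 to 27.1 ± 1.31 CPM (SD, n = 2), or a log2 fold change of 0.33 (with a standard error of 0.08, adjusted P = 0.00544 by edgeR's quasi-likelihood test). Without IL-12 replicate 1 the log2 fold change was 0.28 and the call was lost (adjusted P = 0.0961 by the same edgeR test).

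Tgfb2 (ENSMUSG00000039239, chromosome 1 from 186622792 to 186705989), whose product depends most on betaglycan for receptor binding, moved the other way. It had 88.5 and 91.6 CPM under saline, against 77.2 and 80.7 CPM after IL-12, and the groups did not overlap. The mean fell from 90.0 ± 2.15 to 78.9 ± 2.48 CPM (SD, n = 2), or a log2 fold change of -0.19 (with a standard error of 0.05, adjusted P = 0.00597, edgeR). This call was also lost without single libraries, with a log2 fold change of -0.17 without control replicate 2 (adjusted P = 0.0508, edgeR) and -0.16 without IL-12 replicate 1 (adjusted P = 0.0952, edgeR).

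Tgfb3 (ENSMUSG00000021253, chromosome 12 from 86056745 to 86079041) had 33.9 and 35.6 CPM under saline, against 36.5 and 37.6 CPM after IL-12. Its log2 fold change of 0.09, with a 95% interval from -0.05 to 0.23, did not pass (adjusted P = 0.348, edgeR). The gene overlaps Ttll5 on the opposite strand, but their exons do not overlap. Ttll5 had 1731 counts over the 4 libraries against 2716 for Tgfb3, and whether the counting used strand is not given in the sources used here.

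Per deposited gene length, Tgfb2 was the most abundant ligand transcript and Tgfb1 the least in every library. The lengths used were 5042 for Tgfb1, 5791 for Tgfb2 and 3383 for Tgfb3. Counts per gene do not give the length of the transcripts made in these cells. The order and the shares below therefore depend on the deposited lengths. In the control libraries Tgfb2 made up 51.5% and 51.8% of the summed FPKM of the ligand genes, and in the IL-12 libraries 44.9% and 46.1%. The share of Tgfb1 was 14.8% and 13.7% in the control libraries against 18.7% and 17.2% in the IL-12 libraries, and that of Tgfb3 33.8% and 34.4% against 36.3% and 36.7%. The sum itself overlapped between the groups, with 29.7 and 30.5 FPKM in the saline controls, against 29.7 and 30.3 FPKM after IL-12. The mixture of ligand transcripts therefore differed between the groups in these libraries, while their total did not separate them.

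Ltbp1 (ENSMUSG00000001870, chromosome 17 from 75005568 to 75392512) encodes the matrix protein that holds the latent ligand, and it had the largest rise of the 10 genes. It had counts of 2060 and 1999 in the saline controls, against 3265 and 2808 after IL-12. The level was 109 and 106 CPM in the saline controls, against 165 and 155 CPM after IL-12, well apart. The mean went from 107 ± 2.0 to 160 ± 6.95 CPM (SD, n = 2), or a log2 fold change of 0.58 (with a standard error of 0.04, 95% interval from 0.48 to 0.67, adjusted P = 1.27e-08 by edgeR's quasi-likelihood test). Relative to the summed ligand transcripts, Ltbp1 was at 0.349 and 0.331 in the saline controls, against 0.531 and 0.490 after IL-12, as ratios of FPKM. Counts per gene cannot tell the transcripts from its upstream and internal starts apart.

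The receptor genes followed. Tgfbr3 (ENSMUSG00000029287, chromosome 5 from 107106570 to 107289629), the co-receptor betaglycan, fell most. It had 1793 and 1706 counts in the saline controls, against 1184 and 1067 after IL-12, or 94.6 and 90.4 CPM against 59.9 and 59.0 CPM. The IL-12 libraries lay close together and far below the controls. The mean fell from 92.5 ± 3.01 to 59.4 ± 0.616 CPM (SD, n = 2), or a log2 fold change of -0.64 (with a standard error of 0.05, 95% interval from -0.74 to -0.53, adjusted P = 1.63e-08 by the same edgeR test). A larger absolute log2 fold change was seen in 7.39% of all genes tested. The genes that overlap Tgfbr3 in the annotation had at most 20 counts over the 4 libraries.

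Tgfbr2 (ENSMUSG00000032440, chromosome 9 from 116084293 to 116175360), the ligand-binding type II receptor, was by far the most abundant of the 10 genes. Its level was 137 and 138 FPKM in the saline controls, against 132 and 134 FPKM after IL-12. The fold change of 0.965, with a 95% interval from 0.930 to 1.0, did not pass (adjusted P = 0.137, edgeR). Tgfbr1 (ENSMUSG00000007613, chromosome 4 from 47353222 to 47414931), the type I receptor kinase, was low beside it, with 10.5 and 9.81 FPKM in the saline controls, against 9.11 and 9.64 FPKM after IL-12. Its fold change of 0.920 (95% interval from 0.848 to 0.998) did not pass after adjustment either (adjusted P = 0.117, edgeR). Both values were below the control libraries, and with scaling by total counts only both genes passed, with log2 fold changes of -0.16 for Tgfbr1 and -0.092 for Tgfbr2.

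The ratio of Tgfbr2 to Tgfbr1 transcripts per length was 13.0 and 14.1 in the saline controls, against 14.5 and 13.9 after IL-12, so the groups overlapped. The ratio of Tgfbr3 to Tgfbr2 did not overlap. It was 0.105 and 0.100 in the saline controls, against 0.0694 and 0.0674 after IL-12, which puts betaglycan transcripts lower relative to the signalling receptor after IL-12.

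Of the SMAD genes, only Smad3 passed the test. Smad3 (ENSMUSG00000032402, chromosome 9 from 63646767 to 63757994), a signal transducer that binds DNA directly, had 5310 and 5282 counts in the saline controls, against 4556 and 4410 after IL-12. The control libraries were nearly equal, and both IL-12 libraries were lower. The mean fell from 280 ± 0.302 to 237 ± 9.52 CPM (SD, n = 2), or a log2 fold change of -0.24 (with a standard error of 0.04, adjusted P = 4.52e-05 by edgeR's quasi-likelihood test).

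Smad2 (ENSMUSG00000024563, chromosome 18), the other receptor-activated transducer of this pathway, had 69.8 and 68.1 CPM in the saline controls, against 67.6 and 68.2 CPM after IL-12. It was the only 1 of the 10 genes whose groups overlapped, with a log2 fold change of -0.02 (95% interval from -0.13 to 0.08, adjusted P = 0.794, edgeR). Smad4 (ENSMUSG00000024515, chromosome 18), the common partner, had 105 and 101 CPM against 97.2 and 99.4 CPM and a log2 fold change of -0.07 (95% interval from -0.17 to 0.03, adjusted P = 0.318, edgeR). These intervals leave room for small changes of either gene. As ratios of FPKM, Smad3 to Smad2 was 2.57 and 2.63 in the saline controls, against 2.18 and 2.29 after IL-12. Smad3 to Smad4 was 1.79 and 1.86 in the saline controls, against 1.59 and 1.64 after IL-12, so the SMAD transcripts were less weighted to Smad3 after IL-12.

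**Figure D1:**
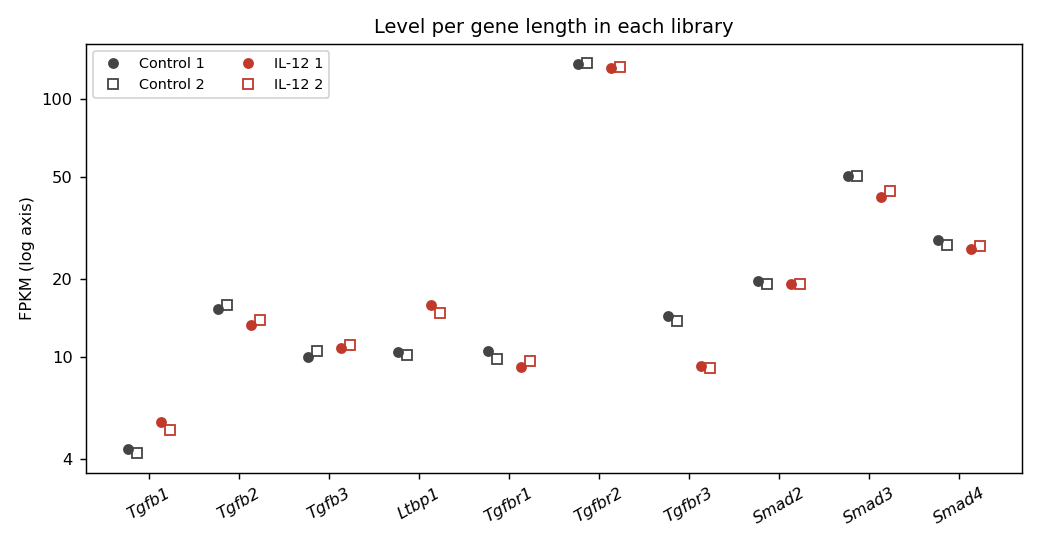
The level of each of the 10 genes in each library is plotted in FPKM on a log axis, with control libraries in grey and IL-12 libraries in red (filled circles for replicate 1 and open squares for replicate 2). Tgfbr2 sits above all others at 132 to 138 FPKM, Tgfb1 sits lowest at 4.2 to 5.57 FPKM, and Ltbp1 and Tgfbr3 show the widest gaps between the groups.

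Compared per gene length within the control group, the order of the levels was Tgfbr2, Smad3, Smad4, Smad2, Tgfb2 and Tgfbr3, followed by Tgfb3, Ltbp1 and Tgfbr1 near 10.2 FPKM and by Tgfb1 at 4.29 ± 0.132 FPKM (SD, n = 2). The libraries of Tgfb3, Ltbp1 and Tgfbr1 overlapped, and no other neighbours in this order did. In the IL-12 treatment group Ltbp1 moved up from place 8 to place 5, with 15.3 ± 0.663 FPKM, and Tgfbr3 moved down from place 6 to place 9, with 9.09 ± 0.0936 FPKM (SD, n = 2). There it overlapped Tgfbr1. The ratio of Ltbp1 to Tgfbr3 went from 0.718 and 0.732 in the control libraries to 1.72 and 1.64 in the IL-12 libraries. It sets the gene that rose most against the gene that fell most, so its separation follows from that choice.

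**Figure D2:**
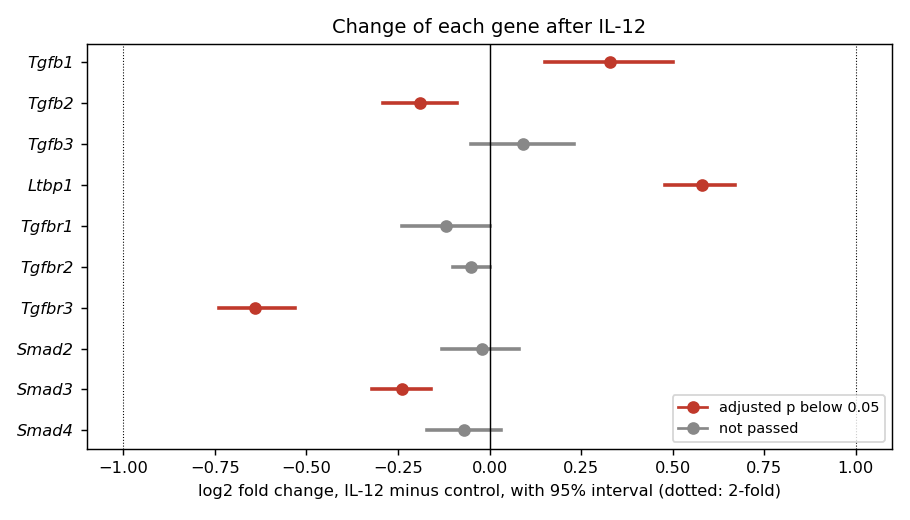
The log2 fold change (IL-12 minus control) of each gene is plotted as a point with its 95% interval from edgeR's quasi-likelihood fit, in red where the adjusted P was below 0.05 and in grey otherwise. All intervals lie inside the dotted 2-fold lines, with Ltbp1 at 0.58 and Tgfbr3 at -0.64 farthest from 0.

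The groups did not overlap in 9 of the 10 genes, and neither did they in 62.9% of all genes tested. The libraries of a group differed by 0.152% to 7.34% of their mean over the 10 genes. The median log2 fold change of the 10 genes was -0.06, against 0.00 over all genes tested, so the genes did not shift together in 1 direction. Over the whole table the 5th and 95th percentiles of the log2 fold change were -0.58 and 0.52. Tgfbr3 and Ltbp1 lay outside these percentiles and the other 8 genes inside.

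**Figure D3:**
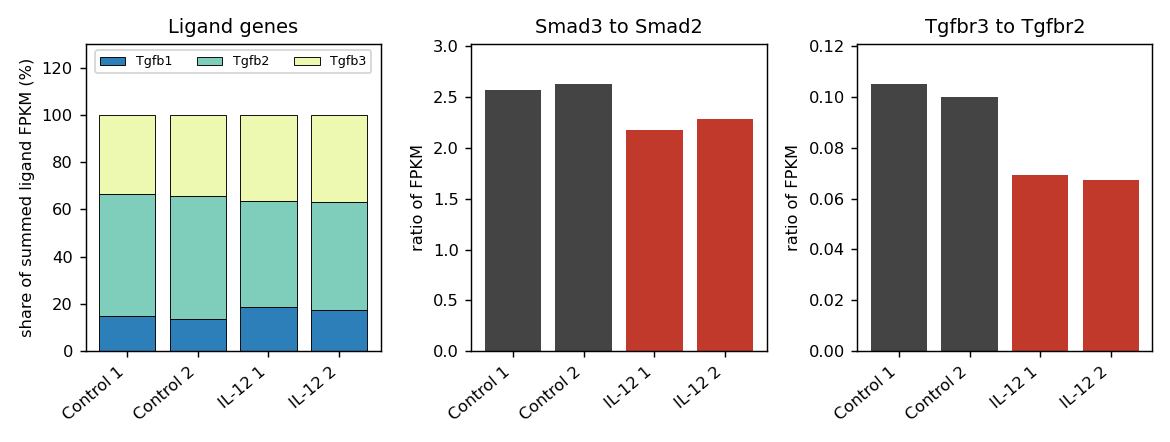
The left panel gives the share of Tgfb1, Tgfb2 and Tgfb3 in their summed FPKM (percent) in each library, and the other panels give the ratio of FPKM of Smad3 to Smad2 and of Tgfbr3 to Tgfbr2, with axes from 0. Both IL-12 libraries lie below both control libraries in the share of Tgfb2 (44.9% and 46.1% against 51.5% and 51.8%) and in both ratios.

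The rest of the pathway was then described from lists of its other parts. Of 83 further genes in 7 lists, 65 passed the filter, of which 17 rose and 13 fell. That is 46.2% of them, against 30.5% of all genes tested. Their median log2 fold change was 0.01. The lists were chosen with earlier results of these data known, so the higher share is no independent evidence of a response of the pathway. The count of each list below stands beside the same background of 16.1% higher and 14.4% lower.

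In the list of latency and activation genes, 4 of the 9 genes tested rose and 2 fell. Itgav, the integrin chain that pairs with several β chains to release the ligand, rose from 398 ± 5.96 to 472 ± 18.6 CPM (SD, n = 2), or a log2 fold change of 0.25 (with a standard error of 0.03, adjusted P = 1.21e-05, edgeR). Itgb6, a β chain of such a pair, was at the other end with a log2 fold change of -0.59 (with a standard error of 0.16, adjusted P = 0.00979, edgeR), and it passed in 7 of 13 alternatives, with log2 fold changes from -0.82 to -0.30. The call was lost without control replicate 1 and without either IL-12 library. The following were named after their values were seen, for their kinship with Ltbp1 or their role in release. Ltbp3 rose by 0.14 on the log2 scale (adjusted P = 0.00213, edgeR), Ltbp4 had a log2 fold change of 0.19 that did not pass (adjusted P = 0.212, edgeR), and Ltbp2 had at most 6 counts in a library. Thbs1, whose product thrombospondin can free the ligand, stood at 6541 and 6596 CPM in the saline controls, against 7177 and 7284 CPM after IL-12. Its log2 fold change was 0.14 (adjusted P = 2.35e-05, edgeR), a small rise of a very abundant transcript that was not called by limma on log2(FPKM + 1). Itgb8, the other β chain known for release, fell by 0.52 on the log2 scale, from 20.4 and 19.6 CPM under saline to a mean of 14.0 ± 1.48 CPM (SD, n = 2, adjusted P = 0.000703, edgeR).

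Among the other receptors and co-receptors, 1 of 9 rose and 3 fell. Acvr1, a type I receptor of the BMP and activin branch, rose by 0.38 on the log2 scale (adjusted P = 0.00272, edgeR), a call that was lost without IL-12 replicate 1 (log2 fold changes from 0.31 to 0.43 over 13 alternatives). Acvr2b, a type II receptor for activins, fell by 0.75 on the log2 scale (with a standard error of 0.23, adjusted P = 0.0198, edgeR), from 104 and 66 counts to 52 and 49. It passed in 7 of 13 alternatives, with log2 fold changes from -1.04 to -0.34. The Acvr2b call was lost without control replicate 1 and without either IL-12 library. In the list of activins, GDFs and their antagonists, 3 of 7 rose and 3 fell. Inhba, which encodes the activin A subunit and feeds the same SMADs, rose from 53.4 ± 0.479 to 113 ± 2.73 CPM (SD, n = 2). Its log2 fold change was 1.08 (with a standard error of 0.05, adjusted P = 1.25e-11, edgeR), larger than that of any of the 10 genes. Gdf15, a stress-induced member of the superfamily, fell from 400 ± 20.8 to 285 ± 14.0 CPM (SD, n = 2), or a log2 fold change of -0.49 (adjusted P = 2.31e-08, edgeR).

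Of the 5 other SMAD genes, only Smad7 passed. Smad7, the inhibitory SMAD that binds the type I receptor, had 48.1 and 51.6 CPM in the saline controls, against 72.0 and 69.7 CPM after IL-12, a log2 fold change of 0.51 (with a standard error of 0.06, adjusted P = 1.11e-06, edgeR). Of 13 SMAD anchors, cofactors and corepressors, 1 rose and 4 fell. Skil, which encodes a corepressor of SMAD complexes, rose by 0.67 on the log2 scale (adjusted P = 2.08e-09, edgeR), and Ncoa1, a coactivator, fell by 0.27 on that scale (adjusted P = 0.017, edgeR) and passed in 8 of 13 alternatives. In the list of receptor and SMAD turnover genes, 5 of 13 rose and 1 fell. Pmepa1, which sequesters receptor-activated SMADs, went from 73.2 and 72.5 CPM to 232 and 231 CPM, a log2 fold change of 1.67 (adjusted P = 1.48e-15, edgeR). Nedd4l, a ubiquitin ligase that acts on activated SMADs, fell by 0.58 on the log2 scale (adjusted P = 7.08e-08, edgeR). Of 9 kinases and partners outside the SMAD route, Map2k3 and Rhoa rose by 0.15 and 0.10 on the log2 scale and the other 7 did not pass. The Map2k3 call held in 6 of 13 alternatives and was lost when any 1 of the 4 libraries was left out. That of Rhoa held in 4 of 13 and was lost with the replicate block, with total counts, and without either control library or IL-12 replicate 1, over log2 fold changes from 0.058 to 0.12.

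Of 16 tested genes that are commonly used as TGF-β/SMAD targets, 11 rose and 1 fell, with a median log2 fold change of 0.48, against 16.1% and 14.4% of all genes. This list holds genes known to have moved in these libraries and shares Smad7, Skil and Pmepa1 with the lists above, so it is no independent evidence of a direction. Tsc22d1 was the only gene of the list to fall, by 0.09 on the log2 scale (adjusted P = 0.0193, edgeR), and its call was lost in 4 of 13 alternatives, among them without control replicate 2 and without either IL-12 library (log2 fold changes from -0.13 to -0.070 over all 13). No absolute log2 fold change of the 10 ligand, receptor and SMAD genes was above 0.64. Of the 16 targets 4 rose over 2-fold, a limit that 1.61% of all genes exceeded in either direction with an adjusted P below 0.05. Because the list holds genes known to have moved, the sizes of change in the 2 sets cannot be weighed against each other.

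**Figure D4:**
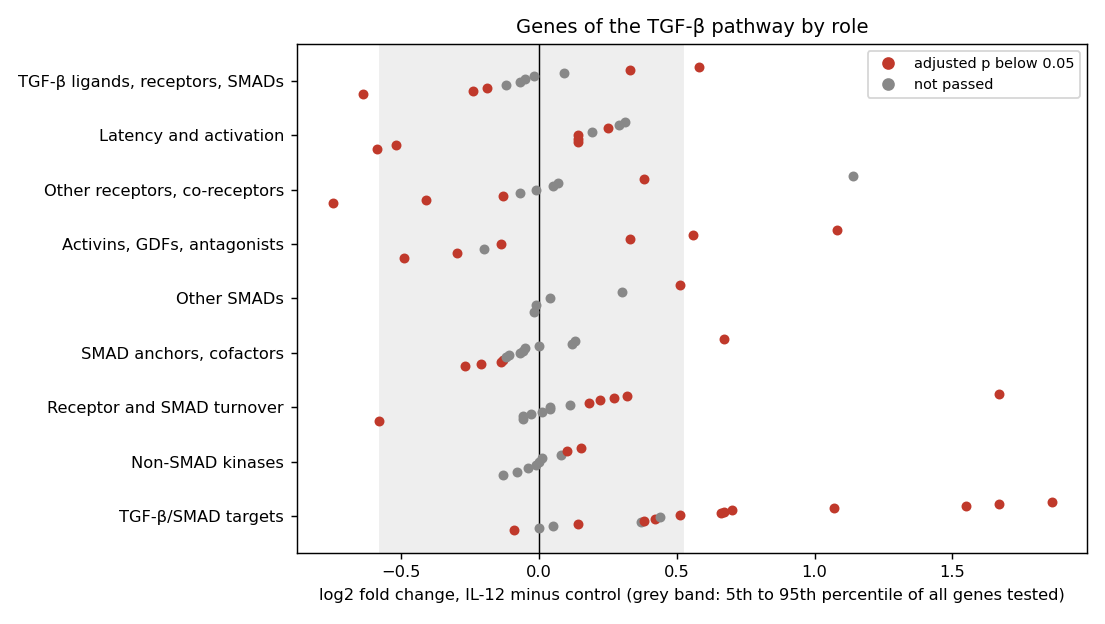
Each point is 1 tested gene, placed by its log2 fold change (IL-12 minus control) in the row of its list, in red where the adjusted P was below 0.05 by edgeR's quasi-likelihood test and in grey otherwise, and the band spans the 5th to the 95th percentile of all genes tested (-0.58 to 0.52). The 10 ligand, receptor and SMAD genes lie between -0.64 and 0.58, while Inhba (1.08) and Pmepa1 (1.67) lie far to the right.

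Synpo, the actin-binding podocyte marker synaptopodin, also fell, from 480 ± 13.7 to 304 ± 3.79 CPM (SD, n = 2), or a log2 fold change of -0.66 (adjusted P = 3e-11, edgeR). Of the 7 podocyte markers tested, 3 rose and 1 fell, so the markers gave no common direction beside which the 10 genes could be read.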

How the data were processed

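RNA-sequencing of 4 libraries of mouse podocytes was analysed, with groups and replicate numbers from the sample labels. The authors deposited raw counts per gene and FPKM values, which equal the counts per gene length and library total times 1 factor per library. The submitters' processing notes name HISAT2 and StringTie without versions and the build mm9, whereas the deposited coordinates are those of GRCm38 (GENCODE M21) for 98.3% of 54409 shared genes and for 9 of the 10 members. The counting program and its use of strand are not given in the sources used here.

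Counts were tested in R 4.3.3 with edgeR 4.0.16 (filterByExpr with a minimum of 10 counts, TMM scaling, quasi-likelihood test, Benjamini-Hochberg adjustment over 14095 genes), on all 4 libraries without a block. Standard errors are the log2 fold change over the square root of F. limma 3.58.1 and DESeq2 1.42.0 served alternatives, and figures were drawn with matplotlib 3.10.9. A floor of 3 counts was 0.149 to 0.163 CPM and covers counting error only. Ratios were not tested. With 2 libraries a group, the smallest exact permutation P is 0.333. The members and lists were chosen with earlier results of these data known. From each list the passing genes with the largest and the smallest log2 fold change were named, except for some that are not reported here.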

Additional observations from a re-analysis of the deposited data

How the results depend on the processing

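The 10 genes kept their direction in all 13 alternatives, and Ltbp1, Tgfbr3 and Smad3 passed in every one, with log2 fold changes from 0.53 to 0.62, -0.68 to -0.59 and -0.28 to -0.20. With each library left out in turn, Tgfb1 ranged from 0.28 to 0.38 and Tgfb2 from -0.22 to -0.16, and both calls were lost as given with their values above. That left 1 or 2 genes higher and 2 or 3 lower. Total counts in place of TMM called 5 lower, adding Tgfbr1 (-0.16) and Tgfbr2 (-0.092), and put 40.5% of all calls on the higher side against 52.8%.

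Over all genes, 2267 were higher, 2030 lower and 227 over 2-fold. The DESeq2 Wald test gave 1492, 1213 and 103, and limma on log2(FPKM + 1) gave 1606, 1280 and 38. Leaving out a library gave 1404 to 2010 higher, 1124 to 1712 lower and 144 to 254 over 2-fold, the fewest each time without IL-12 replicate 1. The cause was not tested. With the replicate block, 2 of the 10 genes were higher and 3 lower and 241 genes were over 2-fold, and no call on the 10 genes changed. Same-numbered libraries shared no deviation (correlation -0.0323 across genes), and they share only a number. A lone library left in a group is assumed to vary like the others.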
